A study of Rattus norvegicus with 28 samples.

Results

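The immediate early response genes described here are 10 genes, *Fos*, *Jun*, *Junb*, *Jund*, *Atf3*, *Egr1*, *Nr4a1*, *Zfp36*, *Dusp1* and *Btg2*. They were followed in the terminal ileum of newborn rats, in a model of necrotizing enterocolitis. Necrotizing enterocolitis is an inflammatory disease of the immature gut. Members were found by gene symbol in the array's platform annotation: 22 of the 8799 probe sets carried 1 of these symbols. They covered 9 of the 10 genes, and no probe set carried the symbol *Btg2*. The genes were selected on their signal in these arrays, which earlier results had shown to be higher under formula and hypoxia than under breast feeding. The difference between the regimens is therefore given as a description with no test. Changes with age within a regimen, and changes in the regimen difference from day to day, were tested.

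Each of the 28 arrays held ileal RNA of a single pup. Of the 9 groups, the first was 4 unfed newborns, treated as day 0. Breast-fed pups were taken at 1, 2, 3 or 4 days of life, 3 per day. Pups fed formula and exposed to hypoxia 3 times a day were taken at those same ages, again 3 per day. No pup received formula or hypoxia alone, so what each did cannot be told apart. The sources used here do not give the strain or the time between the last hypoxia and death. P-values measure the spread between pups, and nothing in the labels says whether pups of 1 group shared a litter.

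Immediate early genes are transcribed within minutes of a stimulus from factors already present in the cell, without new protein synthesis. Growth factor receptors, stretch, cytokines, ischaemia and other stresses reach them through MAP kinases, calcium and cyclic AMP, which act on serum response factor and CREB at their promoters. The transcripts and most of their proteins are short-lived. Some members encode transcription factors: Fos and Jun proteins pair into AP-1, while Egr1 and Nr4a1 bind sites of their own. Others close the response: Dusp1 is a phosphatase that inactivates MAP kinases, Zfp36 (tristetraprolin) speeds the decay of mRNAs with AU-rich elements, and Btg2 restrains proliferation.

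Promoter sequence was at hand for 7 of the 10 genes, from RefSeq (GRCr8). *Fos*, *Jun* and *Atf3* were not in the table. The 3 promoters printed belong to the genes with a promoter in the table whose 6 late formula and hypoxia arrays (days 3 and 4) all stood above the 6 late breast-fed arrays. Each run is the 250 bases before the annotated start, 5′ to 3′ on the gene's own strand. Capitals mark the motif matches: the cyclic AMP response element TGACGTCA and its core TGACG in *Dusp1*, the core in *Junb*, and the Egr site GCGNGGGCG followed by a CArG box, the serum response factor motif, in *Zfp36*.
Dusp1, chr10:17184603-17184852, plus strand: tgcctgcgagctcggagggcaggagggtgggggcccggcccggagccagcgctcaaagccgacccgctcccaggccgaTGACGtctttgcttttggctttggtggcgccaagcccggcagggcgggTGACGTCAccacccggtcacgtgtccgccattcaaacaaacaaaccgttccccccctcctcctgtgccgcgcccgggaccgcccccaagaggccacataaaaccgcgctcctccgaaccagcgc
Junb, chr19:40080876-40081125, plus strand: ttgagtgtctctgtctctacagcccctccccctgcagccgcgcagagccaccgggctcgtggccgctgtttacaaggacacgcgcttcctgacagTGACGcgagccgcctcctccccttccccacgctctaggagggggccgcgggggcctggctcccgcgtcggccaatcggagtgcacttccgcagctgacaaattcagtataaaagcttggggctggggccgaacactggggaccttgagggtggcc
Zfp36, chr1:92799109-92799358, minus strand: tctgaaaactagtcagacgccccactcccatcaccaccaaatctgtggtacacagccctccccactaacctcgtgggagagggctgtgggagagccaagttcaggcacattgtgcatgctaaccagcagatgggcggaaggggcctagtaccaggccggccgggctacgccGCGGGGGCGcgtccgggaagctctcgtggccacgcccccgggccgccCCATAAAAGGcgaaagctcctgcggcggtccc

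Motifs were searched on both strands of 300 bases, 250 before to 50 after the start, in the 7 promoters and in 33469 promoters of that length. The full element TGACGTCA lay in 3 of the 7 (*Dusp1*, *Jund* and *Btg2*) against 1.83% of all promoters. Its core TGACG, which every full element also contains, lay in 6 of the 7 against 21.2%. The Egr site lay in 4 (*Zfp36*, *Jund*, *Nr4a1* and *Btg2*) against 4.98%, and the CArG box in 2 (*Zfp36* and *Egr1*) against 1.64%. The AP-1 site TGAGTCA was in none of the 7 windows and in 4.63% of all promoters. A match is a description of letters, not a site shown to be bound in these pups.

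Signals are quantile-normalised intensities, and differences are on the scale log2(signal + 8). Folds are these differences turned into ratios, so they are folds of signal + 8. Where a signal is low, they are smaller than the fold of the signal itself. A gene was called when its adjusted p was under 0.05 in limma, with Benjamini-Hochberg adjustment over all 3185 genes tested. Of the 22 probe sets, 18 passed the filter on low signal, and 14 passed it when the 6 late formula and hypoxia arrays were left out. Each gene was represented by its brightest probe set on average, and all 9 of these passed even when no formula and hypoxia array was counted. The ileal label fitted the markers: *Fabp6*, the ileal bile acid binding protein, had signals of 418 to 1743 over the 28 arrays and *Fabp2* 2605 to 8026, while *Slc10a2*, the ileal bile acid transporter, was low at 12.3 to 78.8. Among the breast-fed arrays, 2 differed from the rest: day 3 replicate 3 had lost 69 of 754 otherwise abundant probe sets and day 4 replicate 2 had lost 48 of 757, against 0 to 2 in the other 26; these are called the depleted arrays. The submission fell into 2 accession runs of 19 and 9 arrays. The smaller run held all 3 breast-fed day 4 arrays, breast-fed day 1 replicate 2 and day 3 replicate 3, replicate 3 of day 4 of formula and hypoxia, and 3 unfed arrays (replicates 2 to 4).

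No immediate early gene was called against unfed newborns on day 1 of either regimen. Among the 9 groups, day 3 of formula and hypoxia had the highest mean signal of each of the 9 genes. The means there were 752 for *Fos*, 261 for *Jun* and 848 for *Egr1*. That group belongs to the contrast that chose the genes, and the share of all genes is not given here. Nothing is therefore read from this ranking. For *Jund* the mean of 79.8, against 71.3 in unfed newborns, rested on replicate 1, which read 126. The group's median for *Jund* was 61.6, against 66.9 in unfed newborns. On day 4 the estimates of all 9 genes were below those of day 3, while *Fos*, *Jun* and *Dusp1* were above day 1 by the test. Of all genes tested, 49.8% were estimated higher on day 4 than on day 3, and the fall from the highest group was not tested. The values of each gene follow, beginning with the subunits of AP-1.

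*Fos* encodes the inducible partner of Jun proteins in AP-1. Its signals in unfed replicates 1 to 4 were 230, 164, 161 and 234. Breast-fed pups of day 1 read 132, 256 and 138, those of day 2 213, 171 and 165, those of day 3 216, 172 and 146, and those of day 4 186, 31.7 and 174. With formula and hypoxia, day 1 gave 136, 185 and 245, day 2 gave 177, 180 and 184, day 3 gave 744, 560 and 952, and day 4 gave 489, 563 and 310. The 6 late formula and hypoxia arrays lay above the other 22, with no overlap. The choice of the genes favours this separation, and the share of all genes is not given here, so nothing is read from it. The low breast-fed value on day 4 came from replicate 2, which had lost abundant probe sets. The regimen difference at day 4 was 2.0 with that array and 1.25 when this array and its day 3 counterpart were left out. The other *Fos* probe sets showed the same split, one of them at 139 to 296 on day 3 and 73.9 to 122 on day 4 of formula and hypoxia, and at 3.71 to 66.3 in the other 22 arrays. The fainter of these probe sets did not pass the filter on low signal.

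*Jun* encodes the principal Jun protein of AP-1. Unfed signals were 18.9, 39.9, 28.8 and 68.5. Breast-fed pups of day 1 read 47.7, 10.4 and 29.8, those of day 2 52.5, 57.6 and 50.9, those of day 3 79.8, 68.8 and 2.05, and those of day 4 179, 98.6 and 97.5. With formula and hypoxia, day 1 gave 27.0, 4.62 and 34.6, day 2 gave 41.2, 43.3 and 31.2, day 3 gave 214, 145 and 424, and day 4 gave 149, 298 and 220. The breast-fed day 4 arrays of *Jun* were themselves above all unfed arrays, and the late arrays of the regimens overlapped between 145 and 179. The breast-fed day 3 value of 2.05 came from the array with 69 lost probe sets. The regimen difference at day 3 was 2.59 with it and 1.57 when both depleted arrays were left out. The other 3 *Jun* probe sets gave day 3 regimen differences of 1.18 to 1.52. None of these 3 passed the filter on low signal without the late formula and hypoxia arrays.

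*Junb* and *Jund* encode further Jun proteins, *Jund* being the one that many tissues express without a stimulus. With formula and hypoxia, day 1 of *Junb* gave 83.8, 69.6 and 63.8, day 2 gave 72.2, 55.3 and 68.6, day 3 gave 192, 90.0 and 103, and day 4 gave 111, 84.8 and 70.4. Breast-fed pups of day 1 read 35.5, 34.3 and 63.2, those of day 2 26.1, 33.7 and 27.5, those of day 3 25.2, 53.5 and 45.3, and those of day 4 53.6, 54.0 and 34.4. On every day the lowest formula and hypoxia array of *Junb* was above the highest breast-fed array, by the narrowest margin on day 1. On day 3, 8.85% of all genes were separated that way, and the share on the other days is not given here. This contrast chose the genes, so nothing is read from the separation. A second *Junb* probe set did not show that separation on the early days: its regimen difference was -0.30 on day 1, 0.34 on day 2, 1.25 on day 3 and 1.00 on day 4. *Jund* gave no such separation: it read 126, 51.9 and 61.6 on day 3 of formula and hypoxia against 16.2, 61.0 and 4.20 in breast-fed pups, and 60.02 to 91.2 in unfed newborns. The 4.20 came from the depleted array of that day, replicate 3.

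*Atf3* encodes a stress-induced factor of the ATF and CREB family. Its 22 arrays outside days 3 and 4 of formula and hypoxia read between 29.7 and 53.3. Those late arrays read 96.6, 49.6 and 185 on day 3 and 92.9, 86.9 and 63.6 on day 4. Of these 6, day 3 replicate 2 was the array inside the range of the others.

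*Egr1*, a zinc finger factor, had the single highest reading of its probe set in formula and hypoxia day 3 replicate 3. That group read 527, 349 and 1669, and day 4 read 296, 313 and 134. Days 1 and 2 of formula and hypoxia read 91.6, 144 and 143 and then 101, 106 and 109. Breast-fed pups of day 1 read 83.6, 108 and 74.8, those of day 2 90.6, 118 and 87.0, those of day 3 181, 119 and 132, and those of day 4 247, 192 and 133. Among the 9 genes, *Egr1* alone had 6 breast-fed arrays of days 3 and 4 that all lay above those of days 1 and 2, as did 2.45% of all genes tested. Its probe sets disagreed. Averaged over the days, the regimen difference was 0.77 for the brightest probe set and 0.16, 0.19 and -0.09 for the other 3, and on day 3 it was 2.19 against 1.70, 0.45 and -0.26.

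*Nr4a1* encodes an orphan nuclear receptor. On day 3 of formula and hypoxia it read 260, 58.9 and 102, and on day 4 it read 53.0, 55.3 and 40.2. Unfed newborns read 47.3, 58.0, 46.6 and 54.0, and the breast-fed arrays at most 48.0. The day 4 arrays were thus inside the unfed range or below it. A second *Nr4a1* probe set read 443, 68.2 and 288 on day 3.

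The negative regulators *Zfp36* and *Dusp1* followed. *Zfp36* read 709, 205 and 439 on day 3 of formula and hypoxia and 179, 296 and 243 on day 4. On day 2 it read 347, 224 and 263, already above the 166, 205 and 160 of breast-fed pups of that age. Breast-fed arrays read 113, 131 and 113 on day 3 and 173, 155 and 136 on day 4, and unfed arrays 164, 198, 218 and 219. *Dusp1* read 109, 60.7 and 172 on day 3 and 94.7, 104 and 45.8 on day 4 of formula and hypoxia. Its breast-fed arrays lay between 4.85 and 42.6, its early formula and hypoxia arrays between 12.5 and 41.2, and its unfed arrays between 23.0 and 60.7. A second *Dusp1* probe set, which passed the filter only through the late formula and hypoxia arrays, read 12.6 to 24.4 in all 22 other arrays. It read 306, 24.2 and 147 on day 3 and 85.1, 101 and 18.3 on day 4, so that replicate 2 of day 3 and replicate 3 of day 4 were at the level of the rest.

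**Figure D1:**
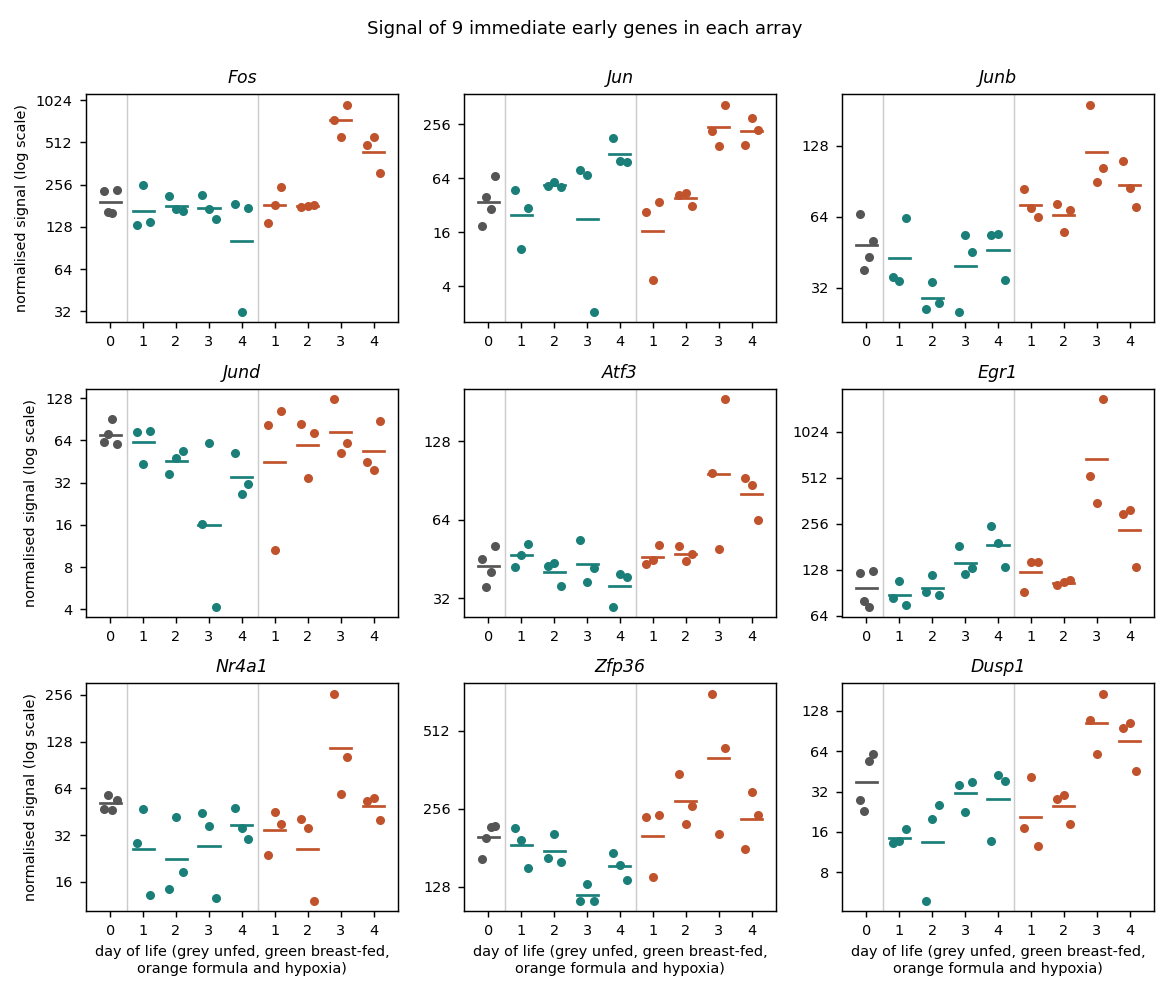
Normalised signal (log scale) of the probe set used for each of the 9 genes, 1 point per array, by day of life; bars are means of log2 signal. Orange points of days 3 and 4 stand above the other arrays for *Fos*, where they read 310 to 952 against 31.7 to 256, while *Jund* overlaps throughout. The choice of the genes favours the separation of *Fos*.

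**Figure D2:**
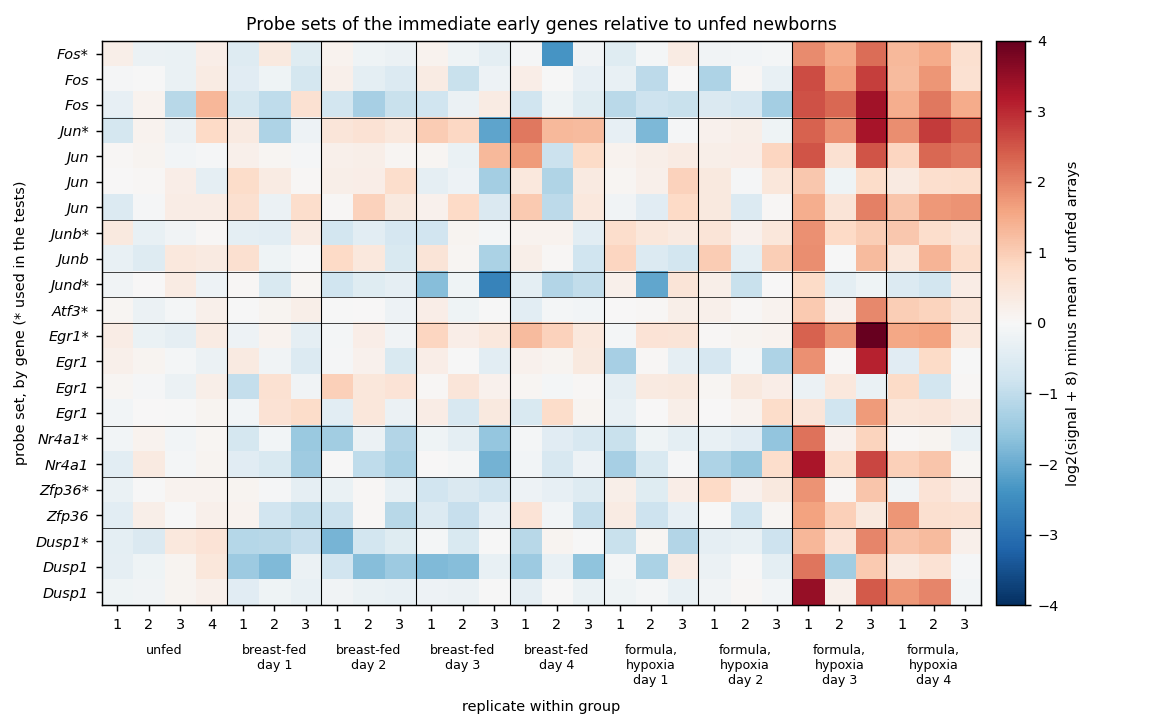
All 22 probe sets (rows, starred where used in the tests) in all 28 arrays (columns): log2(signal + 8) minus the mean of the 4 unfed arrays. The 3 day 3 columns of formula and hypoxia are the reddest, with replicate 2 paler than replicates 1 and 3 in most rows, and the third *Egr1* row stays pale.

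Between the regimens, averaged over days 1 to 4, signal + 8 under formula and hypoxia was 2.05-fold (95% interval 1.53 to 2.74) that of breast-fed pups for *Fos*. For *Junb* it was 1.96-fold (1.60 to 2.40). It was 1.88-fold for *Dusp1*, 1.70-fold for *Egr1*, 1.68-fold for *Zfp36*, 1.57-fold for *Jun*, 1.56-fold for *Nr4a1*, 1.47-fold for *Atf3* and 1.45-fold for *Jund*. Past the threshold were 6 of the 9, where 4.68% of all genes tested were higher. The choice of the genes rests on this contrast, so nothing is read from that count. All 12 formula and hypoxia arrays were above the breast-fed mean of their day for *Junb*. The number was 11 of 12 for *Zfp36*, *Egr1* and *Dusp1*, 10 for *Jund*, *Nr4a1* and *Atf3*, 9 for *Fos* and 8 for *Jun*. Accession run 1 holds both regimens on days 1 to 3 only. Averaged over those 3 days, the median of the 9 differences was 0.76 within that run and 0.75 over all arrays. *Jun* then had a difference of 0.12 in the run and 0.61 over all arrays, and *Jund* 0.27 and 0.54.

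By day, the members' median difference was 0.13 on day 1, 0.20 on day 2, 1.69 on day 3 and 0.79 on day 4, and the median of all genes tested lay between -0.01 and 0.06. The number of members past the limma threshold was 0 on day 1 (0.283% of all genes, either direction), 0 on day 2 (1.48%), 6 on day 3 (0.973% higher) and 1 on day 4 (0.691% higher). These counts use the contrast that chose the genes, so they test nothing about them and nothing is read from them. The day 3 arrays of the regimens did not overlap for 7 of the 9, the exceptions being *Jund* and *Atf3*, and 8.85% of all genes were separated that way. Over days 3 and 4 together there was no overlap for 4 (*Fos*, *Junb*, *Zfp36* and *Dusp1*; 1.76% of all genes). The members' median on day 3 was 1.29 without formula and hypoxia day 3 replicate 1. All 3 day 3 formula and hypoxia arrays belong to accession run 1, in which the day 3 median was 1.55. Within accession run 2, with 1 formula and hypoxia array of day 4, the day 4 median was 0.65, and *Egr1* stood at -0.46.

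**Figure D3:**
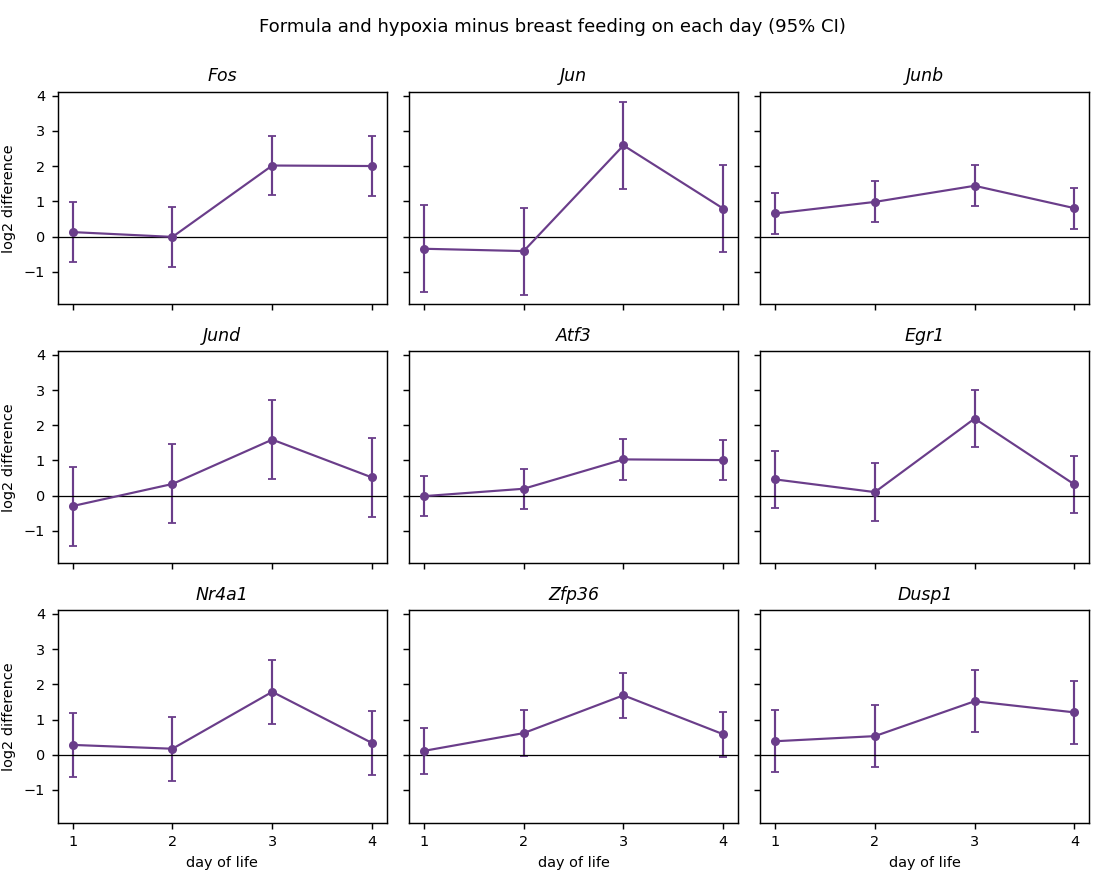
Log2 difference of formula and hypoxia minus breast feeding on days 1 to 4, with 95% intervals from the model over 28 arrays, for each of the 9 genes. *Fos* goes from -0.01 on day 2 to 2.02 on day 3 and 2.0 on day 4, whereas *Egr1* peaks at 2.19 on day 3 and is at 0.32 on day 4.

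Whether the regimen difference changed with age was tested by contrasts that are independent of its mean over the days. The genes were chosen with earlier results of these data known, and that independence would not cover a choice made on single days. No member passed limma's F test that the effect is equal at all 4 ages (0.0942% of all genes called). The smallest adjusted p-values in that limma F test were 0.199 for *Fos*, 0.340 for *Egr1* and 0.345 for *Jun*, and 5 of the 9 had an unadjusted p under 0.05, as did 7.41% of all genes. No member passed limma's test of day 4 against day 1 either (0.157% of all genes). There the largest estimate was 1.88 ± 0.58 (SE) for *Fos*, with an adjusted p of 0.297 in limma, and 2 of the 9 had an unadjusted p under 0.05, as did 7.06% of all genes. The estimate for *Fos* was 1.13 when both depleted arrays were left out.

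Within formula and hypoxia, 3 of the 9 genes rose from day 1 to day 4, and none fell (6.62% of all genes rose and 6.78% fell). This comparison shares its arrays with the regimen difference but is independent of its mean over the days. It would not be independent of a choice of genes made on single days. *Jun* rose 8.35-fold in signal + 8 (95% interval 3.54 to 19.7; adjusted p = 0.00220 in limma), a difference of 3.06. *Dusp1* rose 2.90-fold (1.57 to 5.36; adjusted p = 0.0200 in limma), and *Fos* rose 2.34-fold (1.30 to 4.21; adjusted p = 0.0475 in limma). In all 3 genes each of the 3 day 4 arrays was above each of the 3 day 1 arrays. The share of all genes separated that way is not given here, so nothing is read from this separation. The remaining estimates were 0.87 for *Egr1*, 0.70 for *Atf3*, 0.43 for *Nr4a1*, 0.25 for *Junb*, 0.22 for *Zfp36* and 0.12 for *Jund*. The members' median was 0.70, against 0.00 over all genes tested.

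Of these calls, *Jun* was kept under all 41 alternatives that allow the comparison, with adjusted p-values of 6.06e-05 to 0.0164 in limma. The estimate for *Jun* rests partly on the low day 1 replicate 2 at 4.62; the lowest estimate with 1 array left out was 2.53. The call of *Dusp1* was lost when day 1 replicate 1 or 3, or day 4 replicate 1 or 2, was left out (limma adjusted p = 0.0714, 0.0896, 0.103 and 0.0806). *Fos* lay at the threshold. Its adjusted p in limma was 0.173 without day 1 replicate 1, 0.0948 without day 1 replicate 2, 0.161 without day 4 replicate 1 and 0.148 without day 4 replicate 2. It was between 0.0502 and 0.0559 in 14 further omissions of an unfed, breast-fed, or day 2 or 3 formula and hypoxia array. *Atf3* (adjusted p = 0.0958 in limma) passed when day 3 replicate 2 or replicate 3 of formula and hypoxia was left out (0.0329 and 0.0357). The other probe sets of these genes, read from the same arrays, gave 1.66 and 2.62 for *Fos*, 1.54, 1.47 and 0.17 for *Jun*, and 1.38 and 0.65 for *Dusp1*. None of those of *Jun* and *Dusp1* passed the filter on low signal without the late formula and hypoxia arrays. The fainter one of *Fos* failed it, so these values add nothing to the test. The second *Zfp36* probe set gave 1.28 where the brightest gave 0.22. Within accession run 1, with 2 day 4 arrays, *Jun*, *Dusp1* and *Fos* were called at 3.00, 1.84 and 1.46.

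Within breast feeding, none of the 9 was called between day 1 and day 4 by limma, and 0.314% of all genes were called. *Jun* and *Egr1* had an unadjusted p under 0.05, 2 of the 9 where 17% of all genes had one. *Jun* had the largest estimate, 1.92 ± 0.60 (SE; adjusted p = 0.124 in limma), with all 3 day 4 arrays above all 3 day 1 arrays. For that separation too, the share of all genes is not given here. *Jun* was called when breast-fed day 3 replicate 3, the array with 69 lost probe sets, was left out (adjusted p = 0.0491 in limma). *Egr1* stood at 1.01 ± 0.40 (SE; adjusted p = 0.213 in limma), and *Fos* at -0.65, or 0.10 when both depleted arrays were left out. The formula and hypoxia change of *Jun* exceeded the breast-fed change by 1.14 ± 0.85 (SE; adjusted p = 0.848 in limma).

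From birth to day 1, no member was called on breast feeding (0% of all genes) or on formula and hypoxia (0.408%). An unadjusted p under 0.05 in the same limma fit was reached by 1 of the 9 on breast feeding (*Dusp1*, at -1.05) and by 0 on formula and hypoxia, where 5.84% and 9.98% of all genes reached it. These comparisons share the unfed arrays, and their day 1 arrays belong to the contrast that chose the genes. The members' medians were -0.16 on breast feeding and -0.08 on formula and hypoxia. By days 3 and 4 of formula and hypoxia, all 6 arrays were above all 4 unfed arrays for *Fos*, *Jun*, *Junb* and *Egr1* (7.72% of all genes). Those late arrays also belong to the contrast that chose the genes, so nothing is read from this separation.

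**Figure D4:**
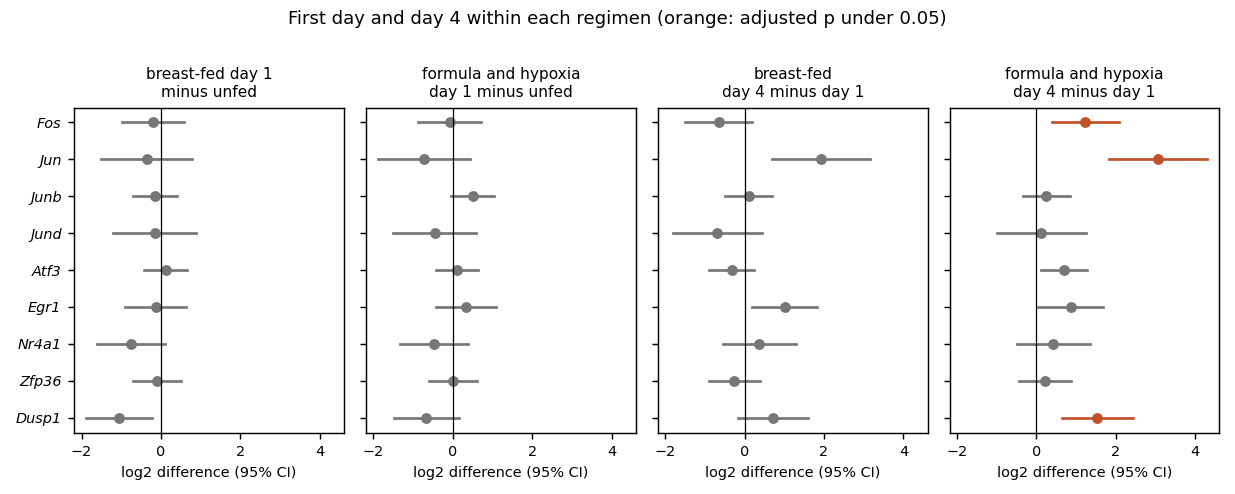
Log2 differences with 95% intervals for the 9 genes in the 4 tested comparisons within a regimen or against unfed newborns; orange marks an adjusted p under 0.05 in limma. *Jun*, *Dusp1* and *Fos* are orange in the comparison of day 4 with day 1 under formula and hypoxia, and no gene is in the other 3 panels.

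The steps between consecutive days under formula and hypoxia were described after the values were seen and carry no test. From day 1 to day 2 the members' median step was 0.03. From day 2 to day 3 it was 1.78: *Egr1* 2.59, *Jun* 2.41, *Fos* 1.98, *Nr4a1* 1.85, *Dusp1* 1.78, *Atf3* 0.92, *Junb* 0.83, *Zfp36* 0.54 and *Jund* 0.29. The median of all genes in that step was -0.02. From day 3 to day 4 all 9 estimates were negative, with a median of -0.44, led by *Egr1* at -1.51 and *Nr4a1* at -1.14, while *Jun* stood at -0.14. Of all genes tested, 49.8% had a positive estimate in that step. The step starts from the group where these genes were highest, so nothing is read from the shared direction. In breast-fed pups the step from day 2 to day 3 had a median of 0.09. *Fos*, *Jun* and *Dusp1* had no overlap between days 1 and 2 and days 3 and 4 of formula and hypoxia (4.02% of all genes). The median step from day 2 to day 3 was 1.30 without day 3 replicate 1, 2.14 without day 3 replicate 2 and 1.44 without day 3 replicate 3.

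Pups of 1 group differed in how many members were high. The mean of the 9 standardised signals was 2.13 and 2.12 in day 3 replicates 1 and 3 of formula and hypoxia, but 0.68 in replicate 2. It was 0.86, 1.03 and 0.51 on day 4. The other 22 arrays lay between -1.07 and 0.17. The 6 late formula and hypoxia pups thus stood above the rest, a separation that the choice of the genes favours. After group means were removed, the 36 pairs of members had a median Pearson correlation of 0.20 over the 28 arrays. It ran from -0.43 for *Jund* with *Dusp1* to 0.80 for *Egr1* with *Atf3*, and 29 pairs were above 0. Without the 3 day 3 formula and hypoxia arrays the median was 0.07 and 21 pairs were above 0. Arrays share RNA quality and scaling, and with the deposited scaling the median was 0.35.

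The genes outside the members whose levels over the 28 arrays were most like the members' mean were *Areg* (Pearson r = 0.79), *Klf9* (0.75), *Cyp3a9* (0.74), *Ptprr* (0.74) and *Cyp27a1* (0.73). *Areg*, which encodes the EGF receptor ligand amphiregulin, read 150 to 688 in the 6 late formula and hypoxia arrays, against a median of 51.8 in the other 22. By variation between pups of 1 group the list was different: *Btg3* (0.77), *Rps24* (0.74), *Gpc3* (0.71), *Ica1* (0.67) and *Dnpep* (0.66). These are the 5 highest values out of all genes tested and carry no p.

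Of 60 other named immediate early and stress genes, 39 had a probe set and 30 were tested. This list was chosen with earlier results of these data known, as were those of upstream genes, AP-1 targets and cell types below. Their counts and p-values are therefore given as a description. In the mean over days, 9 of the 30 were higher under formula and hypoxia and none was lower, where 4.68% of all genes were higher and 6.75% lower. Their median difference was 0.34, against 0.02 over all genes. They included *Klf9*, a Krüppel-like factor induced by glucocorticoid and thyroid hormone, at 1.34, and *Nfkbia*, the inhibitor of NF-kB, at 1.19. They also included *Plaur*, the urokinase receptor, at 1.09, and *Gadd45a*, a growth arrest and DNA damage gene, at 1.06 (limma adjusted p = 0.000789, 0.00124, 5.07e-05 and 0.0211). From day 1 to day 4 of formula and hypoxia 7 of the 30 rose and 2 fell, where 6.62% of all genes rose and 6.78% fell. The largest were *Klf4*, a factor of differentiating epithelium, at 2.05, and *Rhob*, a rapidly induced small GTPase, at 1.72 (limma adjusted p = 0.000241 and 0.00155). In breast-fed pups none of the 30 was called between those days.

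Upstream, 12 of 32 named genes of the MAP kinase cascade and its target factors were tested. Only the kinase gene *Araf* was called in the mean over days, at 0.44 (adjusted p = 0.0137 in limma), and none was called from day 1 to day 4 of formula and hypoxia. Of 7 EGF receptor ligands 2 were tested, and *Areg* was higher under formula and hypoxia by 1.58 (adjusted p = 4.56e-05 in limma). *Areg* also rose from day 1 to day 4, by 1.58 (adjusted p = 0.0231 in limma). Of 20 genes described as AP-1 targets 12 were tested: *Plaur* and *Plau*, the urokinase gene, were higher, and *Spp1* and *Mmp10* were lower. Their differences were 1.09, 0.61, -1.48 and -1.31 (limma adjusted p = 5.07e-05, 0.00202, 4.56e-05 and 1.87e-06). The median of the 12 was -0.03. *Spp1*, the osteopontin gene, also fell from day 1 to day 4 of formula and hypoxia, by 1.81 (adjusted p = 0.00721 in limma).

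Other cell types' markers moved over the same arrays. Beside the counts below, 4.68% of all genes tested were higher and 6.75% lower in the mean over days. From day 1 to day 4 of formula and hypoxia, 6.62% of all genes rose and 6.78% fell. In this whole tissue, fewer cells of a type and less RNA per cell cannot be told apart. Of 8 tested smooth muscle genes, 4 rose from day 1 to day 4 of formula and hypoxia, and in the mean over days none was higher and 1 (*Myl9*, a myosin light chain gene, at -0.50) was lower. Their summed signal was 7460 to 8414 on day 2 and 11566 to 17987 on day 3 of formula and hypoxia, but 11863 to 17171 on day 3 of breast feeding. Of 8 tested fibroblast and matrix genes, 3 were lower in the mean over days: *Lum* and *Dcn*, which encode matrix proteoglycans, at -1.54 and -0.85, and *Postn*, the periostin gene, at -1.44. Their list had a median of -0.52. Its summed signal was 3479 to 6033 on day 3 of formula and hypoxia against 4633 to 5931 in breast-fed pups, and 3201 to 4333 against 6013 to 7139 on day 4. From day 1 to day 4 of formula and hypoxia *Pdgfra* rose by 1.36 and *Lum* fell by 1.41. Of 6 tested mast cell genes, 4 were lower in the mean over days and 2 fell from day 1 to day 4 of formula and hypoxia. Their summed signal was 445 to 654 on day 3 of formula and hypoxia against 1160 to 1779 in breast-fed pups. The mean of their log2 values had a Pearson r of -0.71 with the members' mean over the 28 arrays. Among the other lists described here, that r was 0.38 for smooth muscle, 0.37 for enterocytes and 0.12 for red cells. It was -0.12 for macrophages and granulocytes and -0.21 for fibroblasts and matrix. Of 11 enterocyte genes, 2 (*Krt19* and *Krt8*) rose from day 1 to day 4 of formula and hypoxia. Of 4 red cell genes, 3 were higher in the mean over days, with a list median of 0.44 over the days and -0.05 on day 4. From day 1 to day 4 of formula and hypoxia 2 of the 4 fell (*Slc4a1* at -1.16 and *Alas2* at -1.12), with a list median of -0.79. Of 6 macrophage and granulocyte genes, 1 was higher and 2 were lower, and their summed signal was 1673 to 2878 on day 3 of formula and hypoxia against 2952 to 3899 in breast-fed pups. The part of these shifts in the members' values was not tested. The ratio of the 3′ to the 5′ actin control, a sign of RNA quality, ran from 0.97 to 4.17. It was 1.17, 1.17 and 2.06 in the 3 day 3 formula and hypoxia arrays and highest in formula and hypoxia day 1 replicate 2, the array with the low *Jun* reading of 4.62.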

How the data were processed

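Total RNA from each pup's terminal ileum was hybridised to a rat Affymetrix array, per the labels. The authors deposited 1 intensity per probe set and array on a linear scale (0.000562 to 22483). From the values, 26 of the 28 arrays had been scaled to a 2% trimmed mean near 150. The other 2 had trimmed means of 109.2 and 209.2. The sources used here do not give the software, background correction or summary method. No counts exist, so precision is limited by the number of arrays.

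The deposited intensities were quantile normalised, 8 was added and log2 taken. Probe sets with a mean under the 40th percentile (signal 24.0) were left out, which kept 5244, and 3185 genes were tested by their brightest probe set. Of 8740 non-control probe sets, 7006 had 1 symbol, 308 several and 1426 none. A model with 1 mean per group (19 residual degrees of freedom) was fitted with limma 3.58.1 in R 4.3.3, with an intensity trend. Tests were two-sided and adjusted with Benjamini-Hochberg. The limma steps were tested on simulated data. Groups and replicate numbers came from titles and descriptions. Same-numbered arrays did not deviate together, so no pairing was used. Named genes were every member, of each other list up to 4 genes called in the mean over days and up to 2 per tested contrast, and the 5 most alike genes. Members and lists were chosen with earlier results of these data known. Alternatives covered pseudocount, filter, scaling, probe set choice, weights, accession run and arrays left out.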

Additional observations from a re-analysis of the deposited data

Results flagged for a closer look

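The estimated regimen difference of *Jun* had opposite signs on different days. It was -0.41 ± 0.60 (SE) on day 2, with an interval from -1.65 to 0.82, so the direction on that day is not established. All 3 formula and hypoxia arrays of day 2 (31.2 to 43.3) lay below all 3 breast-fed arrays (50.9 to 57.6). The share of all genes separated that way is not given here, so nothing is read from that separation. The difference was 2.59 on day 3 and 0.79 on day 4. On both days the formula and hypoxia arrays lay above the breast-fed mean of their day. The change of sign between single days was not tested by itself. The F test over the 4 daily effects gave *Jun* an adjusted p of 0.345 in limma. Leaving out the 2 breast-fed arrays with many lost probe sets gave 1.57 on day 3, and accession run 1 alone gave 1.55.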

How the results depend on the processing

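Results were recomputed under 42 alternatives, 28 of which left out 1 array each. The mean regimen difference was above 0 for each of the 9 genes under all of these that allow it. Array weights raised the members called to 1 on day 2, 2 on day 4, 1 in breast-fed day 4 against day 1, 5 in formula and hypoxia day 4 against day 1 and 2 in the F test, and gave a median of 0.47 for the change of the regimen effect from day 1 to day 4 (0.81 in the fit reported). They also raised the calls over all genes, in that order of comparisons from 47 to 148, 63 to 122, 10 to 112, 427 to 720 and 3 to 17. The filter at the 60th percentile tests fewer members. It gave 3 called in the mean over days and medians of 2.10 on day 3, 0.38 in breast-fed day 4 against day 1 and 1.05 in formula and hypoxia day 4 against day 1. The day 3 median was 1.98 with a pseudocount of 2 and 1.31 with 32, which also gave 0.48 for the change from day 1 to day 4. With the deposited scaling, 1 member was called in breast-fed day 4 against day 1 and the median was 0.40. Accession run 2, chosen as an alternative after seeing the data, holds 1 breast-fed array of day 1 and 1 formula and hypoxia array of day 4, each assumed to vary like the other groups. There that median was -0.26, and 0 members were called on day 4. The run as a term also left 0 on day 4, and run 1 left 3 on day 3. Counts between the regimens use the contrast on which the genes were chosen. The cause of these shifts was not tested.

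With 1 array left out, the members called ranged over 6 to 7 in the mean over days, 3 to 8 on day 3, 0 to 2 on day 4, 0 to 1 in breast-fed day 4 against day 1, and 1 to 4 in formula and hypoxia day 4 against day 1. The medians ranged over 1.29 to 2.16 on day 3 and 0.23 to 0.85 for the change from day 1 to day 4. The call of *Fos* in formula and hypoxia day 4 against day 1 was lost (limma adjusted p) with a pseudocount of 2 (0.0569), no filter (0.0633), common median scaling (0.0903), deposited scaling (0.0689), 1 test per probe set (0.0596), the run as a term (0.0570) and the replicate block (0.0613).

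Same-numbered arrays had a median correlation of deviations of -0.002 over 108 pairs, and 5 of 28 arrays correlated best with their own number. No pairing was used, and whether same-numbered pups shared a litter was not tested. With the replicate block, 7 members were called in the mean over days and 2 (*Jun* and *Dusp1*) in formula and hypoxia day 4 against day 1. Counts over all genes moved more: 163 (run 1, days 1 to 3) to 593 in the mean over days (364 reported), 0 to 58 on day 1 (9), 19 to 148 on day 2 (47), 29 to 96 on day 3 (64), 0 to 122 on day 4 (63), 1 to 20 for the change from day 1 to day 4 (5), 0 to 62 and 0 to 92 for day 1 against unfed newborns on breast feeding (0) and on formula and hypoxia (13), 0 to 149 and 150 to 720 for day 4 against day 1 (10 and 427), and 0 to 17 in the F test (3).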
